A study of Mus musculus with 2 samples.

Results

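The genes described here are the mouse microRNA (miRNA) genes numbered Mir6896 to Mir7091, a block of numbers assigned late in the naming of mouse miRNAs and rich in candidate mirtrons. A row of the count tables was a member when its Ensembl gene identifier, without the version, carried a symbol in that range in the GENCODE M21 annotation. This gave 176 members of 1973 miRNA rows, and the rule itself uses no measured value. Of the 196 numbers in the range, 174 had a row under such a symbol and 22 were not analysed here as members. A letter suffix is carried by 3 members (Mir6973a, Mir6973b and Mir7036b). The rows Gm27740 and Gm27775 hold miR-6967 by sequence, but their symbols place them among the other rows.

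The measurements are small RNA sequencing of molecules shorter than 30 nt from whole stomachs of B6NCrl mice at postnatal day 0. There are 2 libraries, each from 1 pup of the same dam, with sex not collected and no treatment or engineered allele named in the labels. Both form 1 group, so no conditions are contrasted, and spreads are those between 2 littermates. Counts on the gene's own strand summed to 4463355 in pup 1 and 3454655 in pup 2. A single count therefore stands for 0.224 and 0.289 counts per 1000000 own-strand counts (CPM), and a count of 0 allows up to 0.672 and 0.868 CPM. These limits and all intervals below cover counting error only, since copies of a molecule made by PCR count separately where no molecular identifier marks them. The tissue label was checked against miRNA genes of stomach cell types: in pup 1 the smooth muscle gene Mir143 stood at 250563 CPM, the squamous gene Mir203 at 94572 CPM and the glandular gene Mir192 at 2784 CPM. In pup 2 these 3 genes stood at 233153, 96198 and 2599 CPM. The hepatocyte gene Mir122 had 916 and 881 counts (205 and 255 CPM), and its part in the levels of the members was not tested. The heart gene Mir208a had 5 and 12 counts and the neuronal gene Mir124a-1 had none, and near-identical copies of its hairpin exist whose shared reads such tables can lack.

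Most miRNAs are cut from a long primary transcript by the Drosha complex and then by Dicer. A mirtron skips the Drosha step: the spliceosome releases a short intron, the lariat is opened, and the intron folds into the hairpin that Dicer cuts. Its hairpin ends are therefore splice sites. In a tailed mirtron only 1 hairpin end is a splice site, and the rest of the intron is a tail that has to be removed first. Introns begin with GU and end with AG after a tract rich in C and U, so mirtron arms carry the letters of splice sites as well as a seed, the bases 2 to 8 of the mature miRNA that pair with targets.

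The hairpins of the 3 members with the highest mean level are shown with their splice-site letters. Mir6944 is printed because its hairpin is a complete intron of Dbn1, the gene of the actin-binding protein drebrin, and Mir7083 and Mir6897 because they had the highest mean levels among hairpins that make up the last part of a longer intron. Capitals mark the intron's terminal bases, and all 3 hairpins are RefSeq sequences on GRCm38.p6, minus strand, written 5′ to 3′.
Mir6944, chromosome 13, 55477681 to 55477776: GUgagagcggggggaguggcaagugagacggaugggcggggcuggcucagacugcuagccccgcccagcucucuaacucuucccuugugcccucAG
Mir7083, chromosome 9, 21809941 to 21810000: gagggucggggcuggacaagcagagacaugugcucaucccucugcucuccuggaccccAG
Mir6897, chromosome 1, 36144252 to 36144313: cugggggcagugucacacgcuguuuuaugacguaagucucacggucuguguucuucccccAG

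Mature arms are shown, with the seed in capitals, for members with a RefSeq entry that reached 5 counts in both pups, the best counted of the block. They show the G-rich 5p arm and the C- and U-rich 3p arm of the block.
mmu-miR-7083-5p: uCGGGGCUggacaagcagaga
mmu-miR-7083-3p: uCUGCUCUccuggaccccag
mmu-miR-6944-5p: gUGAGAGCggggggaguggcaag
mmu-miR-6944-3p: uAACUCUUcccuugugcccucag
mmu-miR-6897-5p: uGGGGGCAgugucacacgcuguu
mmu-miR-6897-3p: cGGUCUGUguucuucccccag
mmu-miR-6945-5p: uCCUGGGAggggcagccccugg
mmu-miR-6945-3p: uCUGAGCUcugcccuucccau
mmu-miR-6969-5p: cAGCAGAGuagggagcaaaaga
mmu-miR-6969-3p: uGUUGUUCccaucucugcag
mmu-miR-6975-5p: gCUGGGGAgaaagggguuuggca
mmu-miR-6975-3p: uCUCUCCUuucuccuccuag
mmu-miR-6935-3p: uGUUCUUUgucuuuccacag
mmu-miR-6988-5p: gGGGUGGAgagcugaggccca
mmu-miR-6988-3p: uGACCUCUguaucuccugccag
Among the 3p arms printed, that of Mir6945 does not end on the last base of its hairpin. Mir6971 also reached 5 counts in both pups.

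All 176 members lay on the sense strand of a protein-coding host gene, against 678 of 1718 other matched rows (39.5%). In 163 members (92.6%) the 3′ end of the hairpin was the 3′ end of a host intron within 3 nt, and in 162 of these it was so to the nucleotide. Among other matched rows this held for 36 of 1718 (2.10%). Counting an intron end at either side, 167 members (94.9%) had one, against 40 other rows (2.33%). The members were spread over 172 hosts and 19 chromosomes, with 75 on the plus strand. These are counts from the annotation, given as a description.

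Members fell into 4 position classes. The largest held 149 members (84.7%) whose 3′ hairpin end alone met an intron end, the arrangement of a 5′-tailed mirtron. The introns of that class had a median length of 500 nt, from 77 to 36269 nt, beside hairpins with a median of 65 nt. In 14 members both hairpin ends were intron ends, so the hairpin was the whole intron, from 67 nt to the 137 nt of Mir7060 in Fbrs. In 4 members, Mir6927, Mir6936, Mir6973b and Mir6977, the 5′ end alone met the intron's start. The other 9 overlapped an exon of the host: 8 touched coding sequence and Mir7036b touched an untranslated part of Add1, and with a tolerance of 10 nt 7 of these 9 also had their 3′ end at an intron end. No member lay in the interior of an intron, the class of 574 other rows (33.4%), and none lacked a host, as 861 other rows (50.1%) did.

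**Figure D1:**
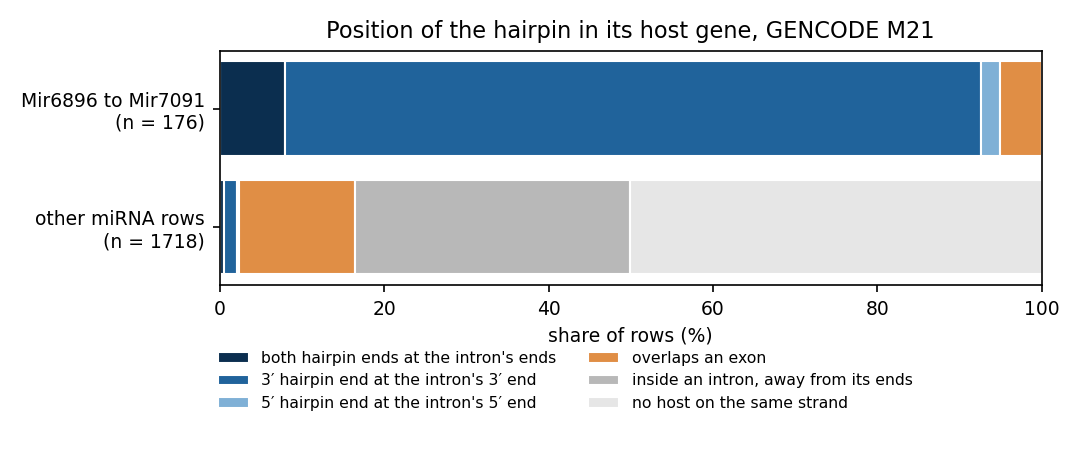
Share of rows (horizontal axis, percent) in each position class for the 176 members and the 1718 other matched miRNA rows. Hairpins ending at a host intron's 3′ end make up 92.6% of the members and 2.10% of the other rows.

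Most hairpins carried the last letters of an intron. Of the members 163 (92.6%) had hairpins ending in AG, against 115 other rows (6.69%). Hairpins beginning with GU numbered 30 among members (17.0%) and 99 among other rows (5.76%), and 13 of the 14 whole-intron hairpins did so. Members were short, with a median of 66 nt against 94 nt, and had a median GC share of 57.9% against 50.0%. Their predicted folding energy had a median of -0.400 kcal/mol per nt, beside -0.374 in other rows.

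RefSeq held mature sequences for 161 of the 176 members. The 5p arms had a median G share of 45.5% (155 sequences), against 27.3% in 463 5p arms of other rows. The 3p arms had a median share of C plus U of 71.4% (153 sequences), against 54.5% in 469 others. Of the 3p arms 120 (78.4%) ended in AG, against 11.5% of the others, and 115 ended on the last base of the hairpin. Only 2 of 176 members shared 20 or more consecutive bases with another annotated hairpin, against 917 of 1718 other rows (53.4%), and both of these members, Mir6970 and Mir7065, had no count.

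**Figure D2:**
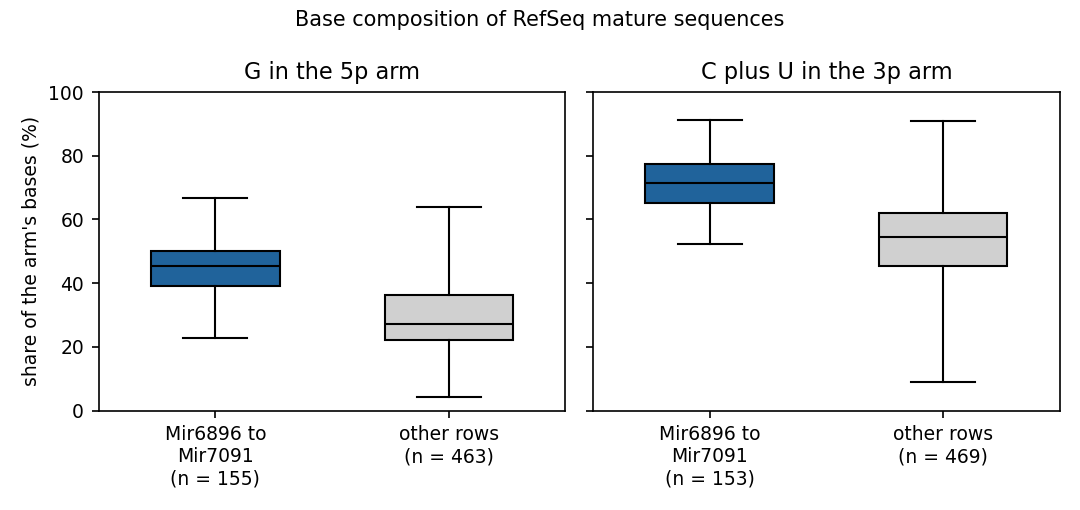
Share of G in 5p arms (left) and of C plus U in 3p arms (right), in percent of the arm's bases, for members and other rows with RefSeq mature sequences. Boxes span the quartiles with the median as a line and whiskers reach the extremes, and the median is higher for members in both panels (45.5% against 27.3% and 71.4% against 54.5%).

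Most seeds occurred in a single member gene. The 308 mature sequences of members carried 284 different seeds, of which 20 occurred in more than 1 member gene and 33 also in a mature sequence of another row. The number of different seeds among other rows was not counted, so these values do not rank the diversity of the block. The seed CACCCUG was common to miR-7018-3p, miR-7023-3p and miR-7068-3p, and GUGGGAG to miR-6922-5p, miR-6993-5p and miR-7008-5p. Some seeds matched those of arms from abundant genes. CUGUUCU was found in miR-6932-3p, miR-7039-3p and the 3p arms of Mir26a-2 and Mir26b (28538 CPM for the higher of these genes). The tables count genes, so they do not tell which arm of Mir26a-2 or Mir26b, or of any member, was read. Mir6932 and Mir7039 together had 3 counts in pup 1 and none in pup 2.

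In the newborn stomach the block was widely but thinly represented. Of the 176 members 113 (64.2%) had at least 1 count in either library, 91 in pup 1 and 84 in pup 2, with 62 in both. Among all other rows 540 of 1797 (30.1%) had a count. That share includes 852 matched rows whose symbol is not Mir with a number, of which 38 (4.46%) had a count. Among the 866 other rows with such a number 501 (57.9%) had one. With at least 10 counts required in each library, the threshold used here for detection, the order was the opposite: 2 members (1.14%) were detected against 303 other rows (16.9%), or 292 (33.7%) of the other rows with a number. The members with a count had a median level of 0.369 CPM, and other rows with a count had 8.16 CPM. The count of members detected rests on the minimum: 18 had at least 3 counts in each library, and without pup 2 the number with 10 counts was 4. The 63 members without a count may still be present below the limits given above. Reads that fit several places may be missing from rows with shared bases. Stretches of 20 or more bases were shared with another hairpin by 53.4% of other matched rows and 1.14% of members. Multimapping reads, 26.0% in pup 1 and 25.7% in pup 2, stayed out of all rows. How far this affects the shares compared here was not tested.

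Counts per member were small throughout. Over both libraries together, 33 members had 1 count, 51 had 2 to 4, 15 had 5 to 9, 10 had 10 to 19, and 4 had 20 or more. No member reached 100 counts in each library, as 222 other rows did. Of the 91 members seen in pup 1, 68.1% were also seen in pup 2, beside 88.5% for other rows, which had more counts. The members with the same small counts in both pups are shown in the plot of counts in pup 1 against pup 2.

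**Figure D3:**
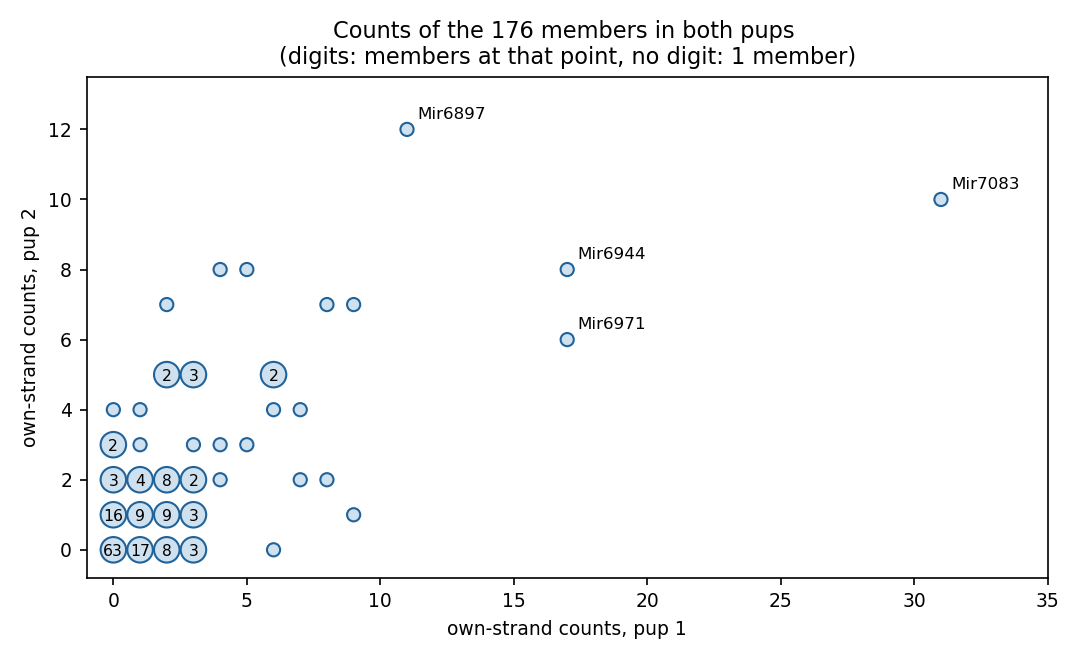
Own-strand counts of each member in pup 1 (horizontal axis) and pup 2 (vertical axis), with the number of members written at each point that holds more than 1. The point at the origin holds the 63 members without a count, and Mir6897, Mir7083, Mir6944 and Mir6971 lie away from the rest.

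Summed over the block, the level was nearly the same in both pups. The members held 294 counts in pup 1, or 65.9 CPM (exact 95% interval 58.6 to 73.8), and 220 counts in pup 2, or 63.7 CPM (55.5 to 72.7). The mean was 64.8 ± 1.55 CPM (SD, n = 2), and the intervals overlap. The 10 highest members held 37.0% of the 514 counts, and the highest, Mir7083, held 7.98%.

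All counts at the members came from the host's sense strand. The opposite strand had 0 counts at the 176 members beside 514 on their own strand, which allows an opposite share of up to 0.584%. The 40 other rows with a hairpin end at an intron end also had 0 opposite counts, beside 30275 on their own strand. Most of those 30275 came from Mir369 (9955 and 6541) and Mir382 (7153 and 5224), both in the host Mirg. Their hairpin ends meet intron ends only within the 3 nt tolerance. Without the host Mirg, 37 such rows had 0 opposite counts, beside 482 own-strand counts in pup 1 and 505 in pup 2. Other rows in protein-coding hosts had 0.0176% of gene counts on the opposite strand. Over all other rows the share was 2.21%, and rows without a host held 99.7% of those opposite counts. For 11 members another gene encloses the hairpin on the opposite strand.

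Among miRNA symbols ordered by number, the share detected was lower at high numbers, while the share with any count did not follow that order. Rows detected were 257 of 465 below Mir1000 (55.3%), 26 of 156 from Mir1000 to Mir4999 (16.7%), 5 of 148 from Mir5000 to Mir6895 (3.38%), and 4 of 97 above Mir7091 (4.12%), beside 1.14% of members. The share with any count was 69.5%, 57.7%, 26.4% and 50.5% in these classes, beside 64.2% of members. The member with the lowest analysed number, Mir6897, had 11 and 12 counts, and the last, Mir7091, an intron of Dnase1l1, had none. Of the nearest numbered rows outside the range, Mir6769b in Unc13a had 2 counts and none, and Mir7093 in Armcx3 had 1 and 3.

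**Figure D4:**
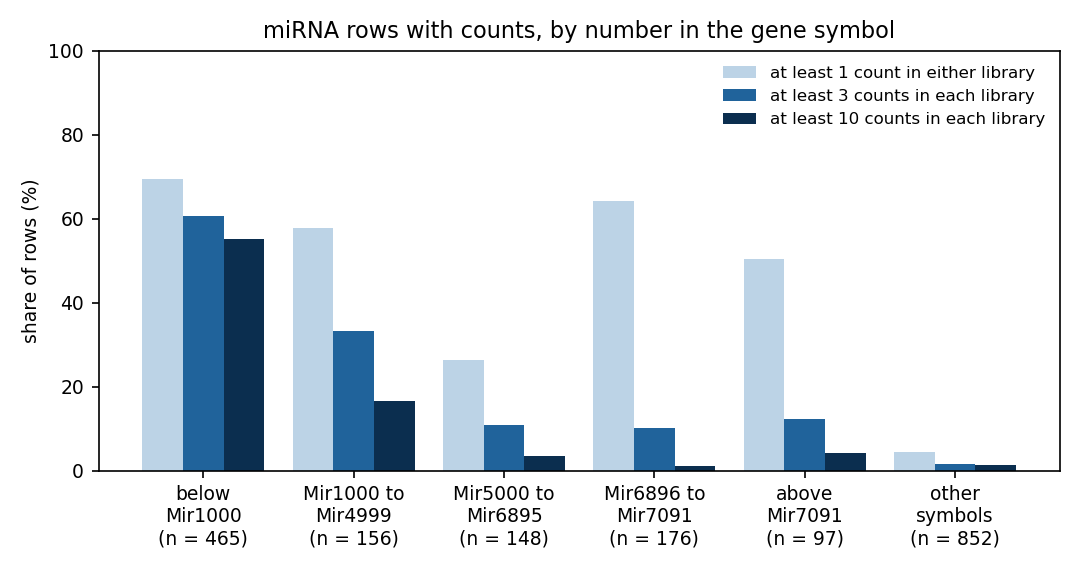
Share of miRNA rows (vertical axis, percent) with at least 1 count in either library, at least 3 in each and at least 10 in each, by the number in the gene symbol. The members stand at 64.2% for any count and at 1.14% for detection.

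In the largest position class, members and other rows had nearly the same share with any count. Of the 149 members with only the 3′ end at an intron end 96 (64.4%) had a count, beside 18 of 28 other rows of that class (64.3%). The shares detected differed more: 2 of these 149 members (1.34%) and 2 of these 28 other rows (7.14%). Those 2 other rows were Mir382 in the host Mirg, at 1557 CPM, and Mir3076 in Tkt, at 3.08 CPM. Median levels where counted were 0.352 CPM for these members and 0.570 CPM for these other rows. The 28 other rows include Gm27740 and Gm27775, which hold miR-6967 by sequence and had no count. For hairpins that are a whole intron the shares were 9 of 14 members and 6 of 8 other rows, with 0 and 4 detected. Members overlapping an exon had a count in 7 of 9 cases (77.8%), beside 123 of 243 other rows (50.6%). With the 5′ end alone at an intron end, 1 of 4 members and 3 of 4 other rows had a count. Other rows in the interior of an intron had a count in 226 of 574 cases (39.4%). By intron length, 27 of 40 members in introns under 100 nt had a count, 55 of 79 in introns of 100 nt to under 1000 nt, and 24 of 48 in longer ones.

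Mirtrons known from other work stood above every member in level, with 1 exception in pup 1. Mir3102, an intron of Arhgef17, had 149 and 106 counts (32.0 ± 1.91 CPM), and Mir1981 in Marc2 had 143 and 178. Mir877, an intron of the ribosome-associated gene Abcf1, had 84 and 127 counts. Mir1224 in Vwa5b2 had 28 and 26 counts (6.90 ± 0.886 CPM), fewer in pup 1 than the 31 of Mir7083. Mir702, whose annotated hairpin overlaps an exon of Plod3, had 39 and 31. The first 4 of these hairpins are whole introns in the annotation. Whole-intron rows outside the list, named after their values were seen, were lower. Mir1982 in Oaz1 had 5 and 10 counts (2.01 CPM), below the highest members, and Mir3547 in Baiap3 had 4 and 3. Gm24589 and Gm27471 had none.

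Mir7083 (ENSMUSG00000098473.1) was the highest member by mean level and had more counts in pup 1 than in pup 2. It forms the last 60 nt of an intron of 1833 nt in Dock6, which encodes an activator of the small GTPases Rac1 and Cdc42, on chromosome 9, minus strand, GRCm38. It had 31 counts in pup 1 and 10 in pup 2, or 4.92 ± 2.86 CPM (SD, n = 2). Its level in pup 1 was higher by 1.37 on the log2 scale, with an exact 95% interval from 0.30 to 2.56. The adjusted p was 0.0163 in a two-sided exact binomial test, adjusted over the 305 detected genes. The test compares these 2 libraries and holds counting error only. Of the 2 members detected 1 was called, beside 2.95% of all genes tested in either direction and 0.656% called higher in pup 1. When edgeR's common dispersion, estimated over both libraries as 1 group, replaced counting error, the adjusted p of Mir7083 was 0.912 and its call ended, with 0.328% of genes called.

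Mir6897 (ENSMUSG00000098752.1), the other detected member, had 11 and 12 counts, or 2.97 ± 0.714 CPM. It ends an intron of 1780 nt in Uggt1, the folding sensor for glycoproteins of the endoplasmic reticulum. Its log2 ratio was -0.39 (exact 95% interval -1.71 to 0.92; adjusted p = 0.688, exact binomial test). Among 113 members with any count, 4 had an unadjusted p under 0.05 in the exact binomial test: Mir7083, Mir6900 (9 and 1 counts), Mir7036 (6 and 0) and Mir7064 (0 and 4). That is 3.54% of these members, beside 178 of all 653 genes with a count (27.3%), which include genes with far more counts. After adjustment over all 653 genes with a count, Mir7083 alone of these passed (adjusted p = 0.0348), with 1.23% of those genes called.

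Some of the 25 highest members lay in hosts whose products act on actin filaments. This grouping was made after the values were seen, such hosts were not counted among the other members, and host mRNA was not measured. Mir6944 (ENSMUSG00000098341.1) in Dbn1 had 17 and 8 counts, or 3.06 ± 1.06 CPM. Mir6945, which ends an intron of 239 nt in Pdlim7, a scaffold of actin filaments, had 9 and 7 counts, or 2.02 CPM in pup 1 and 2.03 in pup 2. Mir6935 ends an intron of 142 nt in Actg1, cytoplasmic gamma-actin, and had 6 and 5. Mir6979 in the actin-nucleating formin gene Diaph1 had 6 and 4 counts, and Mir6985 in Ssh3, a cofilin phosphatase gene, had 8 and 2. Mir6956 in Triobp, whose product bundles actin, had 5 and 3, and Mir7017 in Wasf2, a WAVE complex gene, had 4 and 2.

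Hosts of RNA metabolism, of the endoplasmic reticulum and of coated vesicles carried further members. Mir6971 ends an intron of 135 nt in Skiv2l, the gene of an RNA helicase that works with the exosome, and had 17 and 6 counts, while Mir6970, a whole intron of the same gene, had none. Mir6975 in Ddx39b, a helicase of splicing and mRNA export, had 5 and 8 counts, or 1.72 ± 0.845 CPM. Mir7069 in Farsa, a subunit of phenylalanyl-tRNA synthetase, had 7 and 2. Mir6988 lies in an intron of 82 nt of Syvn1, the ubiquitin ligase of misfolded proteins in the endoplasmic reticulum, and had 6 and 5 counts. Mir6946 in the COPII coat gene Sec24c had 2 and 7, and Mir7063 in the clathrin adaptor gene Ap2a2 had 3 and 5.

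Other hosts encode pumps, metabolic enzymes and regulators. Mir6903 overlaps coding sequence of Atp2b4, a plasma membrane calcium pump, and had 4 and 8 counts. Mir6928 in Atp6v0a1, part of the vacuolar proton pump, had 3 and 5. Mir6900 in Ndufa10, a subunit of respiratory complex I, had 9 counts in pup 1 and 1 in pup 2, and Mir6951 in the antizyme inhibitor gene Azin1 had 7 and 4. Mir7075 in the telomere-binding gene Terf2 and Mir6934 in Tbc1d16, a regulator of Rab proteins, each had 2 and 5 counts. Mir6968 in the Polycomb accessory gene Phf1 had 3 in each library, and Mir6954 in Mroh1 had 4 and 3.

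Hosts that are best known from specialised cells also occurred. Mir6969 ends an intron of 320 nt in Clps, which encodes the pancreatic lipase cofactor colipase, and had 8 and 7 counts (1.91 ± 0.165 CPM). The pancreatic acinar gene Mir216a had 4 counts in pup 1 and none in pup 2, and the part of pancreas in the level of Mir6969 was not tested. Mir7007 in the mast cell protease gene Cpa3 had 3 and 5 counts. Hosts of the same kinds also held members without a count: Mir7076 in the chymotrypsinogen gene Ctrb1 and Mir6949 in the protease gene Mcpt8. In whole tissue, fewer cells of a type and less RNA per cell cannot be told apart.

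**Figure D5:**
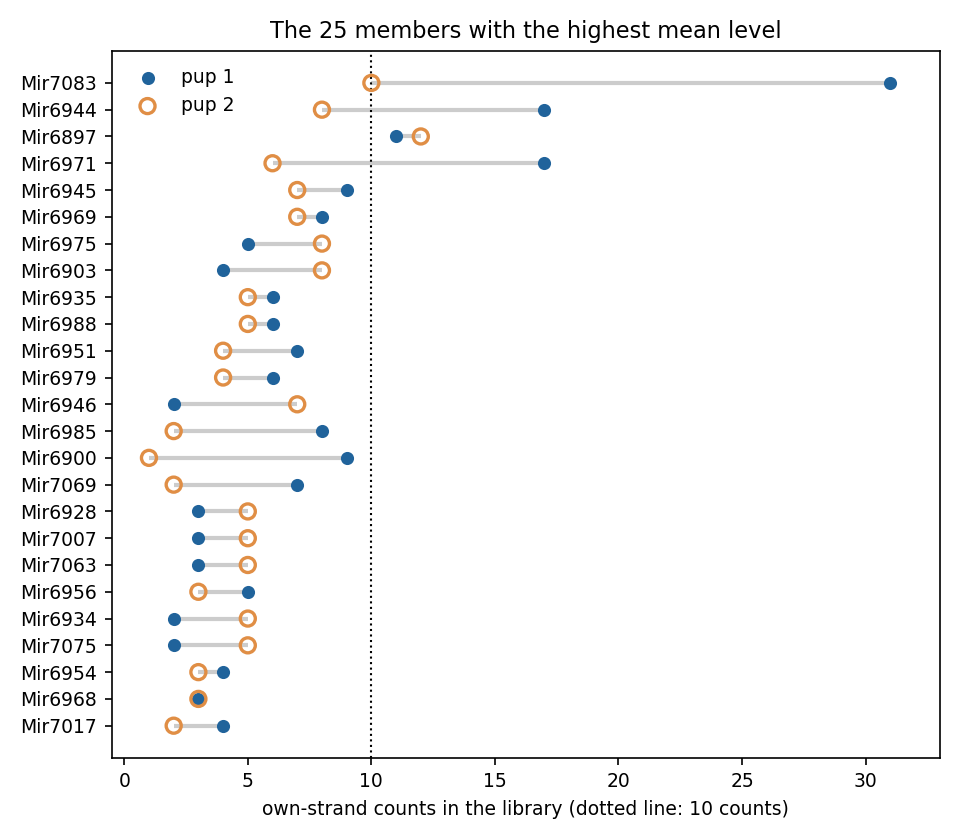
Own-strand counts (horizontal axis) of the 25 members with the highest mean level in pup 1 (filled points) and pup 2 (open points), with the detection minimum of 10 counts as a dotted line. Mir7083 and Mir6897 alone reach 10 counts in both pups.

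Neighbours in the order of levels were not resolved by these data. Molecules shorter than 30 nt were sequenced, so levels are per library and not divided by length. Gene counts do not show whether a read was a mature arm or another piece of RNA from the same strand, and this was not tested. Across the 24 neighbouring pairs of the 25 highest members, 0 differed by more than the larger SD of the pair. Members further apart did in part: of the 300 possible pairs among these 25, 126 differed by more than the larger SD. An SD of 2 libraries can fall below counting error here. For Mir6945, with 9 and 7 counts, it was 0.007 CPM, while 1 count stands for 0.224 or 0.289 CPM. Passing this SD therefore does not show that the members of a pair differ. By CPM, 11 of the 25 were higher in pup 1 and 14 in pup 2. All 25 had at least 1 count in each pup, and 23 of them had the 3′ end alone at an intron end.

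Where a host held a pair of members, both were low or unequal. Mir6921 and Mir6922, in different introns of the lipid regulator gene Srebf1, each had 3 and 1 counts. Mir7077 and Mir7078 in Cmip each had none in pup 1 and 1 in pup 2. In Arap3, Mir6981 had 1 count in each pup and Mir6980 had none. The pair in Skiv2l, Mir6971 with 17 and 6 counts beside Mir6970 with none, was the most unequal of the 4, and Mir6970 is 1 of the 2 members whose bases are shared with another hairpin, so reads that fit both may be missing from its row.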

How the data were processed

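For each library the authors deposited a headerless table of raw, unnormalized counts, with a column for both strands and a column for each strand. Per the text deposited beside the tables, they rest on mm10 and annotation M4. Aligner, counter and adapter treatment: not given in the sources used here. Rows that name no gene stayed out of all totals. In pup 1 they held 8.70% unmapped, 26.0% multimapping and 1.78% unassigned reads, and in pup 2 8.94%, 25.7% and 1.70%. The strand column with the larger total was used as the gene's own strand. The 2 libraries are not copies of one another (chi-square 18619 with 304 degrees of freedom, detected genes).

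Symbols, positions and hosts came from GENCODE M21 on GRCm38, which matched 1894 of 1973 rows, and sequences from RefSeq on GRCm38.p6. A host encloses the hairpin on its strand, protein-coding genes first, then the shortest. Splice-site classes took precedence over exon overlap, with a tolerance of 3 nt over all transcripts of the host. Pups were compared with a two-sided exact binomial test on TMM sizes (edgeR 4.0.16, R 4.3.3), Benjamini-Hochberg adjusted over detected genes, with a call where adjusted p was under 0.05 and levels differed by 1.5 times or more. The test was checked on simulated counts that held counting error only. That check does not cover spread between pups beyond counting error. Alternatives used DESeq2 1.42.0 size factors, edgeR's common dispersion, other minimums, both strands, other tolerances and left-out libraries. Folding energies came from ViennaRNA 2.7.2. Other steps used Python 3.11.15, scipy 1.17.1 and pandas 2.3.3. Named members are the 25 highest, any detected, called or with 10 opposite-strand counts, and both ends of the range. Named beside them are the nearest numbered rows outside the range and 5 mirtrons known from other work. Mir7036, Mir7064, those of shared hosts, stretches, seeds or position classes and those under other observations were named after their values were seen. So were Mir7076 and Mir6949, and the other rows Mir369, Mir382 and Mir3076. The rule for the members uses symbols only, but the block and the lists were chosen with earlier results of these data known.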

Additional observations from a re-analysis of the deposited data

How the results depend on the processing

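The number of members detected, 2 at 10 counts in each library, rests on that minimum: it was 62 at 1 count, 18 at 3, 0 at 20 and 0 at 5 CPM in each library. Leaving out a library gave 2 (without pup 1) to 4 (without pup 2). The number with any count ranged from 84 to 91 when a library was left out. The summed level of 64.8 CPM fell to 59.9 CPM without Mir7083 and lay between 63.3 and 64.9 CPM under TMM or DESeq2 scaling or with both strands, and between 63.7 and 65.9 CPM with either library left out. With edgeR's common dispersion 0 members were called between the pups (1 had an unadjusted p under 0.05), in place of 1. The number with the 3′ end at an intron's 3′ end, 163, was 162 at a tolerance of 0 nt, 171 at 10 nt and 163 with protein-coding transcripts only. Without the 3 symbols with a letter suffix, an alternative chosen after seeing the data, 2 of 173 members were detected and 112 had a count. No paired analysis was possible because the 2 libraries form 1 group.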

Other observations

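Further hosts are best known from particular cells of the gut wall or from other tissues, and their members, picked after their values were seen, are given as values only. Mir7025 overlaps an exon of Pdgfra, a growth factor receptor of mesenchymal cells, and had 2 counts in each pup. Mir6983, which ends an intron of Csf1r, the receptor of a macrophage growth factor, also had 2 in each. Mir6996 in Notch1, a receptor that controls cell fate, had 1 and 3 counts, and Mir7018, a whole intron of the basement membrane gene Hspg2, had 2 and 1. Mir6950, which overlaps an exon of Loxl2, a gene of collagen cross-linking, had 0 and 3. Among the 5 whole-intron members without a count were those of Myh3, a myosin of developing skeletal muscle (Mir6923), of the lymphocyte cytokine gene Lta (Mir6974), and of Lat, an adaptor of T cell signalling (Mir7058). Each of these counts is at most 3, the limit that a count of 0 allows, so differences among them were not detectable at this depth.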
